A study of Mus musculus with 5 samples.

Results

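Neuropilins and plexins are the cell-surface receptors for semaphorins, and 9 of them were followed here in mouse macrophages given semaphorin 3G (Sema3G). They were chosen by name, as the rows whose symbol was Nrp1, Nrp2, Plxna1, Plxna2, Plxna3, Plxnb1, Plxnb2, Plxnc1 or Plxnd1, which is 9 of the 24419 rows of the expression table. Of these, 7 reached a mean of at least 1 CPM (UMIs of a gene per 1e+06 of the library) over the 5 libraries and were tested among 10088 genes, while Plxna3 and Plxnb1 did not.

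The study asked which RNAs differ in activated macrophages after Sema3G. Bone marrow cells of C57BL/6 mice (C57BL6/J in the methods) had been grown into bone marrow-derived macrophages (BMMs) with 50 ng/ml of the growth factor M-CSF for 5 days. Every sample, controls included, then received 100 ng/ml of lipopolysaccharide (LPS), a bacterial stimulus. For the last 18 h, 2 samples were given PBS and 3 were given 100 ng/ml recombinant Sema3G, which the methods describe as an Fc-tagged protein made in a human cell line, whereas the control received PBS. No source used here says that the samples came from separate cultures or mice, so the p values measure the spread between these samples, which may be technical. Since no sample went without LPS, the values below say nothing of how LPS acts on the receptors.

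Class 3 semaphorins are secreted, and most of them bind a neuropilin, which has a large extracellular part and only a short cytoplasmic tail. The signal is passed on by a plexin, whose intracellular part acts on small GTPases of the Ras and Rap kind. The paper cites earlier work in which Nrp2, in a complex with a plexin that it does not name, is the receptor for full-length Sema3G. B-type plexins are best known as receptors for class 4 semaphorins, Plxnc1 for Sema7a and Plxnd1 for Sema3e, and both neuropilins also bind vascular endothelial growth factors.

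RNA 3′ ends were counted with unique molecular identifiers (UMIs), at 1798469 to 2215855 UMIs per library. The libraries differed in ways that touch every value below. The ribosomal RNA precursor Rn45s took 1.01% and 3.19% of UMIs in the PBS libraries and 6.31% to 7.88% in the Sema3G libraries. UMIs on listed genes made up 75.6% and 77.6% with PBS and 65.9% to 71.3% with Sema3G, and the median tested gene had a log2 fold change of -0.22 (Sema3G minus PBS) in CPM as deposited, but of -0.04 when the CPM were scaled by edgeR's TMM factors. Receptor values are therefore given in both forms, and the part of Rn45s in any difference was not tested. Sema3G replicates 2 and 3 were close to each other, at a chi-square of 1.77 for each degree of freedom (7918 genes) against 6.57 or more in every other pair. All 10 macrophage markers looked up were detected, although Mertk had only 16 UMIs in all and 0 in PBS replicate 2. Their summed levels, mostly Csf1r and Lyz2, were 9793 and 12634 CPM with PBS and 8955 to 9564 CPM with Sema3G. Among markers of endothelial cells, which also use neuropilins and Plxnd1, Tek, Tie1 and Emcn were at 0 UMIs in all 5 libraries, and the 7 markers together, mostly Pecam1, reached 13.4 and 30.2 CPM with PBS and 10.8 to 30.0 CPM with Sema3G. In bulk RNA, fewer cells with a receptor and less of its RNA per cell cannot be told apart.

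LPS-stimulated BMMs carried RNA of both neuropilins and mainly of 1 plexin, Plxnb2. Mean levels over the 5 libraries were 241 CPM for Plxnb2, 198 CPM for Nrp2 and 167 CPM for Nrp1, and these were higher than 96.6%, 95.4% and 94.3% of the tested genes. Plxna1 followed at 57.5 CPM, then Plxnd1 at 26.8 CPM and Plxnc1 at 15.0 CPM. Plxna2 stood at 2.01 CPM, above 7.74% of tested genes, and Plxna3 and Plxnb1 were at or near 0. Plxnb2 was the highest receptor in 5 of 5 libraries, and Nrp2 was above Nrp1 in 4 of 5. From Nrp1 down to Plxna2 the order was the same in all 5 libraries and the ranges of neighbouring genes did not meet, whereas the ranges of Plxnb2 and Nrp2, and of Nrp2 and Nrp1, overlapped across libraries. A 3′-end library gives 1 tag for an RNA whatever its length. Divided all the same by the length that the exons of all annotated coding transcripts of a gene cover together, the mean levels were 46.5 CPM per kb for Nrp1, 36.7 for Plxnb2, 19.1 for Nrp2, 6.36 for Plxna1, 3.87 for Plxnd1, 2.06 for Plxnc1 and 0.182 for Plxna2, so the order of the leading 3 depends on this choice. That length is 3597 bases for Nrp1, from 1 coding transcript, and 10380 bases for Nrp2, from 6 coding transcripts with 3 different 3′ ends, and single transcripts of Nrp2 were not compared.

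**Figure D1:**
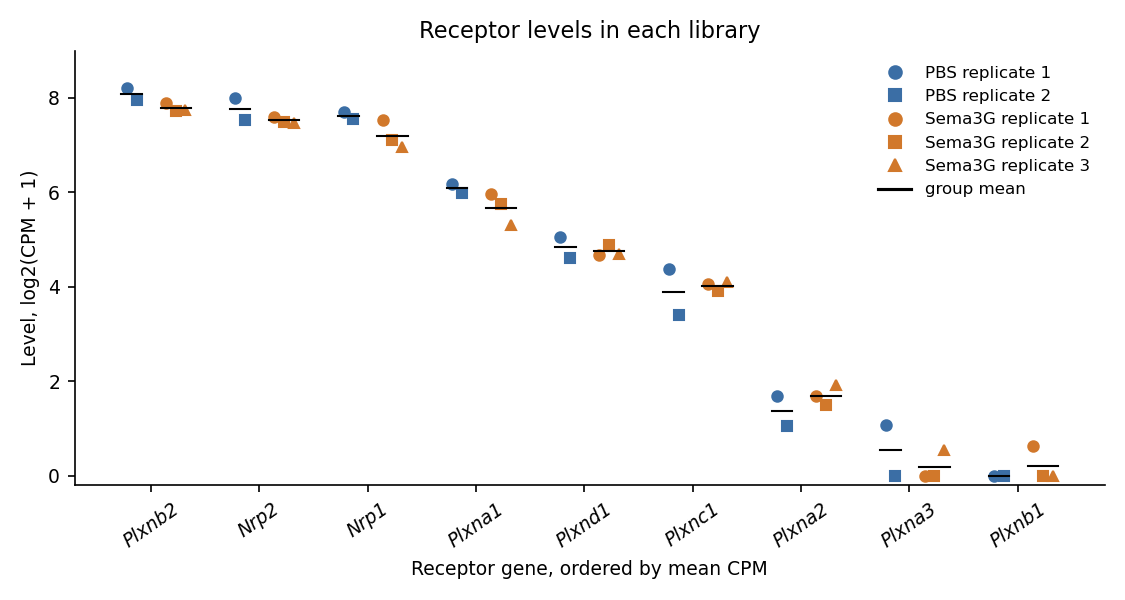
Level of each of the 9 receptor genes as log2(CPM + 1), 1 point per library, with PBS in blue, Sema3G in orange and a bar at the mean of each group. Plxnb2, Nrp2 and Nrp1 lie together at the top, and Plxna2, Plxna3 and Plxnb1 lie at the bottom, where a library holds at most 6 UMIs of a gene.

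Nrp2 did not pass the test between Sema3G and PBS. The gene lies at chr1:62703285-62818695 on the plus strand (mm10 coordinates from GENCODE M21, ENSMUSG00000025969.15). Its levels were 255 and 184 CPM with PBS and 193, 179 and 177 CPM with Sema3G. PBS replicate 1 stood alone above the other 4 libraries, which lay within 177 to 193 CPM, and the groups overlapped. The means were 220 ± 50.0 CPM (SD, n = 2) in PBS samples and 183 ± 8.91 CPM (SD, n = 3) in Sema3G samples, from 808 and 1129 UMIs, a log2 fold change of -0.24 on the log2(CPM + 1) scale (standard error 0.19, 95% interval -0.64 to 0.16, limma adjusted p = 0.465). As a fold this is 0.846, with an interval of 0.641 to 1.12. The difference was close to that of the median gene, at -0.02 relative to it, and with TMM scaling it was -0.04 (95% interval -0.39 to 0.31, limma adjusted p = 0.933), which is a fold between 0.764 and 1.24. The value rested on PBS replicate 1, since without that library it was -0.01 (limma adjusted p = 0.991), and leaving out PBS replicate 2 gave -0.48 (limma adjusted p = 0.209). Over the listed genes alone, without Rn45s, it was 0.05.

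Nrp1, the other neuropilin, was lower in every Sema3G library than in both PBS libraries before rescaling, and did not pass the adjusted test. It lies at chr8:128358604-128503363 on the plus strand (ENSMUSG00000025810.9). Its levels were 206 and 186 CPM with PBS and 184, 137 and 123 CPM with Sema3G. Sema3G replicate 1 was almost at the level of PBS replicate 2, and replicates 2 and 3 were clearly lower. The means were 196 ± 14.3 CPM (SD, n = 2) and 148 ± 31.9 CPM (SD, n = 3), from 722 and 902 UMIs, a log2 fold change of -0.42 (standard error 0.20, 95% interval -0.84 to -0.0013, limma adjusted p = 0.235, and 0.0494 before adjustment). It was the only 1 of the 7 tested receptors with an unadjusted limma p below 0.05, as 2125 of the 10088 tested genes had. TMM scaling brought the groups into overlap, at 181 and 179 against 180, 149 and 138, with a log2 fold change of -0.22 (95% interval -0.58 to 0.14, limma adjusted p = 0.569). Without Sema3G replicate 1 the change in CPM was -0.59 (limma adjusted p = 0.0533), the lowest adjusted p of any receptor under the alternatives tried, and without Sema3G replicate 3 it was -0.30 (limma adjusted p = 0.623).

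Among the A-type plexins, which pair with neuropilins, only Plxna1 had more than a few UMIs. It lies at chr6:89316314-89362620 on the minus strand (ENSMUSG00000030084.11), and its levels were 71.4 and 62.6 CPM with PBS and 61.7, 52.8 and 38.7 CPM with Sema3G. All Sema3G libraries were below both PBS libraries, although replicate 1 fell just short of PBS replicate 2. The means were 67.0 ± 6.22 CPM (SD, n = 2) and 51.1 ± 11.6 CPM (SD, n = 3), a log2 fold change of -0.41 (standard error 0.22, 95% interval -0.88 to 0.063, limma adjusted p = 0.302). It was -0.21 after TMM scaling (limma adjusted p = 0.655), with levels of 62.6 and 60.28 against 60.26, 57.2 and 43.4, so that the lack of overlap there rests on a gap of less than 1 UMI, and over the listed genes alone the groups overlapped. In CPM as deposited, the change was -0.22 without Sema3G replicate 3 (limma adjusted p = 0.716). Without Sema3G replicate 1 it was -0.55 (limma adjusted p = 0.121). The antisense gene Gm26811, on the other strand, overlaps the 3′ end of Plxna1. The sources used here do not say whether strand was used in counting, so a share of the tags may belong to that gene.

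Plxna2 had 4 and 2 UMIs in PBS and 4, 4 and 6 in Sema3G libraries. At 1.63 ± 0.797 CPM (SD, n = 2) and 2.27 ± 0.482 CPM (SD, n = 3) the groups overlapped, and the log2 fold change of 0.33 had a 95% interval from -0.73 to 1.39 (limma adjusted p = 0.726), so a difference was not detectable at this depth. With TMM scaling the log2 fold change was 0.47. In CPM as deposited, it was 0.02 without PBS replicate 2 and 0.65 without PBS replicate 1. Plxna3 had 2 UMIs in PBS replicate 1, 1 in Sema3G replicate 3 and 0 in the other 3 libraries. No fold is given for it, since 3 counts, the one-sided 95% limit for a count of 0, correspond to 1.35 to 1.67 CPM and both groups lay under this floor. These limits cover counting error only. Of the A-type plexins looked up beside the 9, Plxna4 had 0 UMIs in all 5 libraries.

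Plxnb2, a receptor for class 4 semaphorins, was the plexin with the most UMIs. It lies at chr15:89155549-89180788 on the minus strand (ENSMUSG00000036606.17). Its levels were 296 and 246 CPM with PBS and 238, 211 and 215 CPM with Sema3G. The Sema3G libraries were all lower in CPM as deposited, with PBS replicate 2 and Sema3G replicate 1 next to each other. The means were 271 ± 35.7 CPM (SD, n = 2) and 221 ± 14.5 CPM (SD, n = 3), a log2 fold change of -0.29 (standard error 0.18, 95% interval -0.67 to 0.097, limma adjusted p = 0.371). With TMM scaling the groups overlapped and the change was -0.08 (95% interval -0.41 to 0.25, limma adjusted p = 0.840), and over the listed genes alone it was 0.0038. The other B-type plexins were nearly absent, with 1 UMI of Plxnb1, in Sema3G replicate 1, and 8 UMIs of Plxnb3 over all libraries, spread over both groups.

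Plxnc1, known as a receptor for Sema7a, had 36 and 18 UMIs in PBS and 28, 31 and 35 in Sema3G libraries. The PBS libraries lay on either side of all 3 Sema3G libraries, at 19.8 and 9.64 CPM against 15.6, 14.0 and 16.1 CPM. The log2 fold change was 0.12 (standard error 0.32, 95% interval -0.55 to 0.80, limma adjusted p = 0.848), and it turned with the PBS library left out, at 0.61 without replicate 1 and -0.36 without replicate 2. With TMM scaling it was 0.32, and over the listed genes alone 0.41. Plxnd1, known as a receptor for Sema3e that can act without a neuropilin, had levels of 32.4 and 23.6 CPM with PBS and 24.5, 28.4 and 24.9 CPM with Sema3G. All 3 Sema3G libraries lay between the PBS libraries. Its log2 fold change was -0.09 (standard error 0.25, 95% interval -0.61 to 0.43, limma adjusted p = 0.855) and had the opposite sign, 0.11, after TMM scaling.

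**Figure D2:**
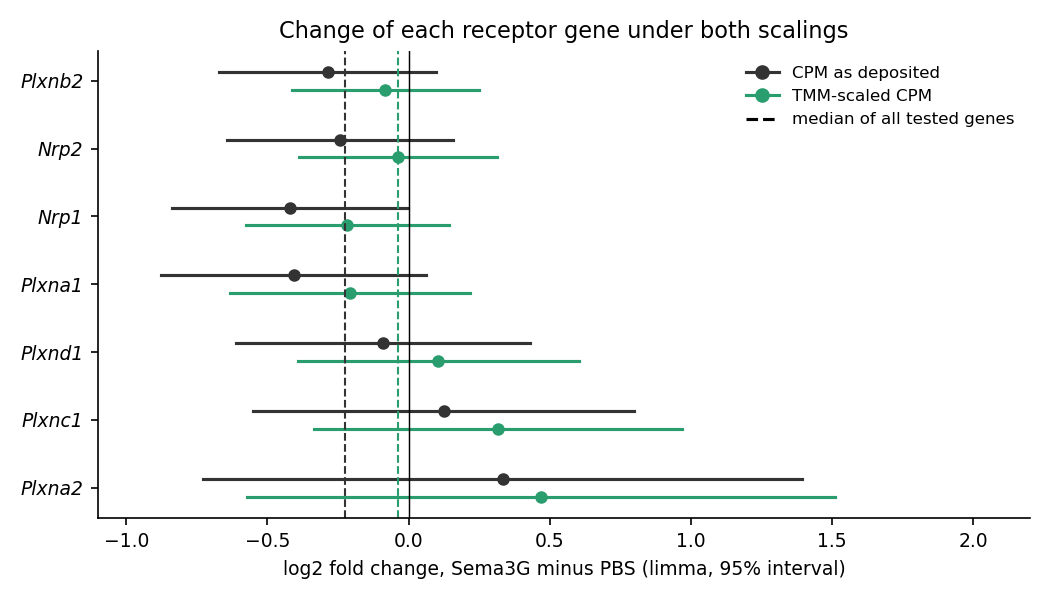
Log2 fold change of the 7 tested receptor genes (Sema3G minus PBS, limma), with 95% intervals as bars, in CPM as deposited (grey) and in TMM-scaled CPM (green), and dashed lines at the median of all tested genes under each. The interval of Nrp1 ends just below 0 in CPM as deposited and spans 0 after scaling, and every other interval spans 0 under both.

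None of the 7 tested receptors passed an adjusted p of 0.05 in limma, where 1.8% of the 10088 tested genes did, 160 of them higher with Sema3G and 22 lower. On UMI counts recovered from the CPM, edgeR's quasi-likelihood test likewise called 0 of the 7. It called 304 of the 10088 tested genes with TMM and 141 without such factors. DESeq2, which called 250 of all tested genes, called none of the receptors that it gave an adjusted p, which left out Plxna2. Nrp1, Plxna1 and Plxnb2 were the 3 receptors whose Sema3G libraries all lay below both PBS libraries, a pattern that 26.5% of all tested genes had, and 0 receptors had the opposite order, which 11.9% of all tested genes had. After TMM scaling there was 1 lower receptor, Plxna1, beside 15.9% of all tested genes, and 1 higher receptor, Plxna2 with its 20 UMIs, beside 17.4%. The median log2 fold change of the 7 receptors was -0.24, and that of all tested genes was -0.22.

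**Figure D3:**
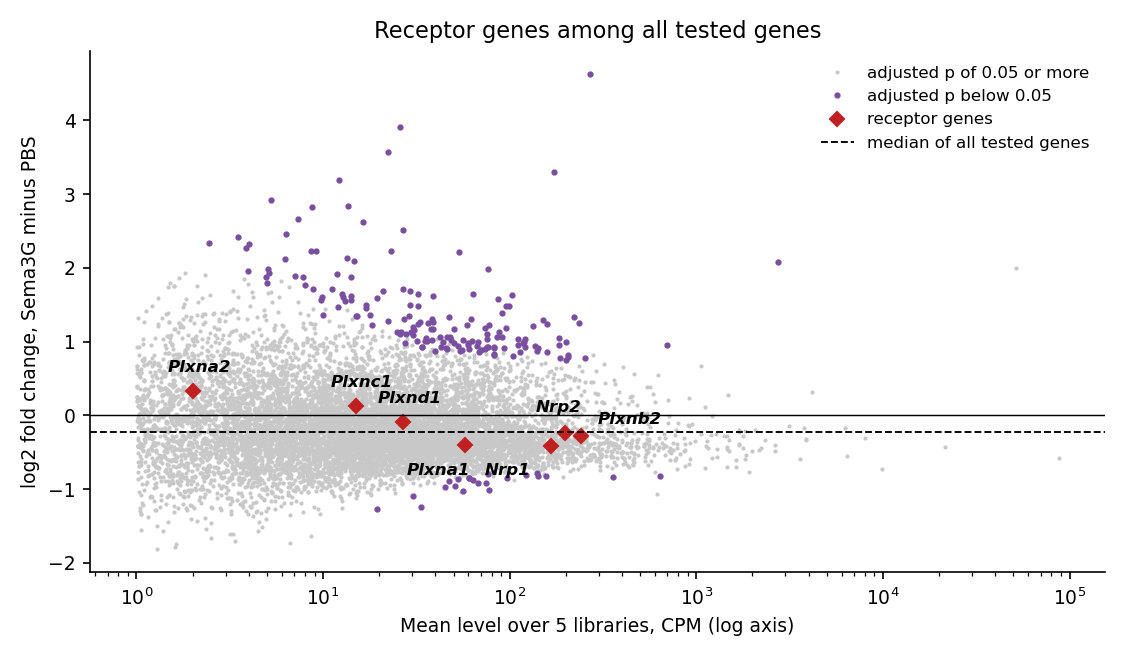
Log2 fold change of the 10088 tested genes (Sema3G minus PBS) against their mean level in CPM on a log axis, with the 182 genes past an adjusted p of 0.05 in purple and the 7 tested receptor genes as red diamonds. The receptors lie within the grey cloud around the dashed median of -0.22, and none is purple.

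Shares among the receptors do not depend on the scaling of a library. Nrp1 made up 44.7% and 50.2% of neuropilin UMIs with PBS and 48.7%, 43.4% and 41.0% with Sema3G. The exact (Clopper-Pearson) 95% intervals of these shares were 41.3% to 48.1% and 46.4% to 54.0% with PBS and 44.9% to 52.6%, 39.7% to 47.2% and 37.1% to 44.8% with Sema3G, on 652 to 839 UMIs. The groups overlapped, and PBS replicate 1 lay with the Sema3G libraries, with means of 47.5 ± 3.90% (SD, n = 2) and 44.4 ± 3.98% (SD, n = 3). Among the 7 plexins, Plxnb2 held 70.0% and 71.7% of UMIs with PBS and 69.5%, 68.5% and 72.1% with Sema3G. Plxna1 held 16.9% and 18.3% against 18.0%, 17.1% and 13.0%, with Sema3G replicate 3 alone low. Plxnd1 took 6.88% to 9.22% over all libraries, Plxnc1 took 2.81% to 5.42%, and Plxna2 stayed below 1%. The neuropilins accounted for 50.2% to 52.4% of the UMIs of the 9 receptors in every library, with 50.2% and 50.6% in Sema3G replicates 3 and 2 the lowest. Two-sided exact permutation tests of these 7 shares between the groups gave p values from 0.2 to 0.6, and 0.2 is the smallest that 2 against 3 samples allow. The 0.2 was that of Plxna2, at 0.52% and 0.31% with PBS and 0.65%, 0.59% and 0.93% with Sema3G, from 20 UMIs in all.

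**Figure D4:**
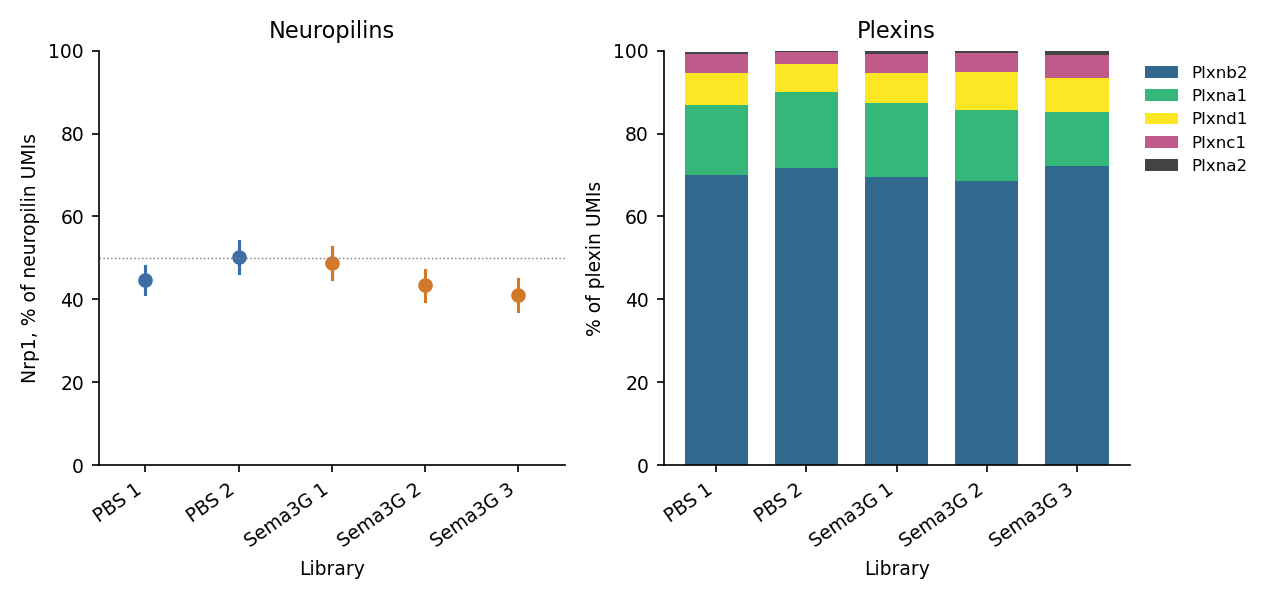
Left, Nrp1 as a percentage of neuropilin UMIs in each library with exact 95% intervals, the dotted line at equal amounts of Nrp1 and Nrp2. Right, the make-up of plexin UMIs in each library for the 5 plexins above 3 UMIs, with Plxnb2 at 68.5% to 72.1% in all 5 libraries.

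In sum over genes, both neuropilins together gave 461 and 370 CPM with PBS and 378, 316 and 301 CPM with Sema3G, and the 7 plexins gave 423 and 343 CPM against 343, 308 and 298 CPM. PBS replicate 1 was the highest library in both sums. With library totals that hold the listed genes alone, without Rn45s, the 9 receptors summed to 1069 ± 120.0 CPM (SD, n = 2) in PBS samples and 1061 ± 40.4 CPM (SD, n = 3) in Sema3G samples.

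The profile of Nrp2 over the 5 libraries, a single high library among nearly equal ones, was shared by other genes. Among 4581 genes whose mean reached 20 CPM, the 5 closest to it by the root mean square difference of centred log2(CPM + 1) were Szrd1 (0.0227), Rilpl2 (0.0364), 6330416G13Rik (0.0368), Esyt1 (0.0383) and Atp2c1 (0.0408). Of the other receptors at this level, Plxnb2 was the nearest at 0.0690, in place 51, followed by Plxnd1 at 0.126 in place 405, Nrp1 at 0.198 in place 1454 and Plxna1 at 0.216 in place 1759. Nrp1 and Nrp2, which bind overlapping ligands, had less alike profiles than Nrp2 and Plxnb2 had over these 5 libraries.

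Semaphorin receptors work with other surface proteins, and 17 of these were looked up. Of them 4 were at 0 UMIs in all libraries, among them the VEGF receptors Flt1 and Flt4, and Kdr, the main VEGF receptor partner of neuropilins, had 4 UMIs in all. The 9 that were tested had a median log2 fold change of 0.10, and 0 passed the adjusted p, although 4 had an unadjusted limma p below 0.05, which 2125 of the 10088 tested genes had. The most abundant was Tyrobp, an adaptor of myeloid receptors linked to Plxna1 through Trem2, at 902 ± 323 CPM (SD, n = 2) in PBS samples and 621 ± 140 CPM (SD, n = 3) in Sema3G samples, a log2 fold change of -0.51 (limma adjusted p = 0.230). Itgb1, the integrin beta chain that binds Sema7a, was at 238 ± 22.8 and 255 ± 8.83 CPM (log2 fold change 0.10, limma adjusted p = 0.758). Cd93, a receptor found in myeloid and endothelial cells, was at 295 ± 112 and 213 ± 74.2 CPM (log2 fold change -0.47, limma adjusted p = 0.301). Ptprj, a receptor tyrosine phosphatase, was singled out after its values were seen, with 15 and 19 UMIs in PBS and 28, 42 and 60 in Sema3G libraries. All its Sema3G libraries were higher, with a log2 fold change of 1.06 (limma adjusted p = 0.0884), and with TMM scaling it passed (1.25, limma adjusted p = 0.0448), as 3.19% of all tested genes did in the upward direction. It also passed over the listed genes alone, where 496 of the 10088 tested genes passed in the upward direction. It passed in edgeR's quasi-likelihood test with TMM, beside 301 upward, and without Sema3G replicate 1, beside 270 upward. It did not pass in DESeq2, and no co-receptor passed without Sema3G replicate 2 or Sema3G replicate 3 (lowest limma adjusted p = 0.300 and 0.413).

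Inside the cell, 37 partners of plexins and neuropilins were looked up and 30 were tested, of which 9 had a positive and 21 a negative log2 fold change, with a median of -0.23, where 6805 of the 10088 tested genes had a negative one. None passed the adjusted p, and 7 had an unadjusted limma p below 0.05, beside the 2125 of all tested genes. The GTPase Rhoa was at 396 ± 1.16 CPM (SD, n = 2) in PBS samples and 329 ± 22.0 CPM (SD, n = 3) in Sema3G samples, lower in all 3 Sema3G libraries before but not after TMM scaling (log2 fold change -0.27, limma adjusted p = 0.393). The actin-severing protein Cfl1 was at 398 ± 74.8 and 296 ± 60.1 CPM (-0.43, limma adjusted p = 0.232), and the GTPase Rac1 was at 278 ± 87.5 and 215 ± 12.6 CPM (-0.33, limma adjusted p = 0.350), and both overlapped between the groups. The partners named from here on were chosen after their values were seen. Arhgef12, an exchange factor that binds B-type plexins, had 47 and 46 UMIs in PBS and 74, 92 and 82 in Sema3G libraries (log2 fold change 0.65, limma adjusted p = 0.128). It was the only partner called after TMM scaling (0.85, limma adjusted p = 0.0348), where 325 of the 10088 tested genes were called. Rnd3, an atypical small GTPase, had 40 and 69 UMIs against 70, 137 and 165 (0.97, limma adjusted p = 0.0820). The other pair had lower counts in all Sema3G libraries. Sh3bp1, a GTPase-activating protein for Rac, had 151 and 160 UMIs against 107, 104 and 86 (-0.80, limma adjusted p = 0.0657), and the tyrosine kinase Fes had 335 and 245 UMIs against 228, 179 and 183 (-0.70, limma adjusted p = 0.107). Which partners passed the adjusted p changed with the fit, as did the calls over all tested genes. Rnd3, Sh3bp1 and Fes passed without Sema3G replicate 1, where 710 of the 10088 tested genes did, and with the replicate number as a block, where 573 did. The block takes Sema3G replicate 3, which has no PBS partner, out of the comparison, and in the fit that simply left this library out 0 partners passed (lowest limma adjusted p = 0.318) and 32 of all tested genes did. Arhgef12, Rnd3 and the kinase Gsk3b passed over the listed genes alone, beside 498 of all tested genes. Rnd3 passed in DESeq2, beside 250. Without Sema3G replicate 2, no partner passed (lowest limma adjusted p = 0.293) and 27 of all tested genes did.

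Of 25 ligand genes of these receptors, 24 had a row, 10 of those were at 0 UMIs in every library, and 8 were tested. Sema3g itself had 0 UMIs in all 5 libraries, so no transcript of the added ligand was detected above the floor of 1.35 to 1.67 CPM. Sema4d, a ligand of B-type plexins and of Cd72, was at 146 ± 39.9 CPM (SD, n = 2) in PBS samples and 113 ± 3.69 CPM (SD, n = 3) in Sema3G samples (log2 fold change -0.33, limma adjusted p = 0.338). Sema4a, another class 4 semaphorin, was at 131 ± 13.5 and 91.0 ± 3.07 CPM and lower in all 3 Sema3G libraries under both scalings (-0.51, limma adjusted p = 0.139), and it passed with the replicate number as a block (limma adjusted p = 0.0491) but not in the fit without Sema3G replicate 3, the library that the block takes out of the comparison. Vegfa, the growth factor that both neuropilins bind, had 93 and 138 UMIs in PBS and 108, 259 and 253 in Sema3G libraries. Sema3G replicate 1 fell between the PBS libraries while replicates 2 and 3 were above both, and the log2 fold change was 0.60 (limma adjusted p = 0.207). Without Sema3G replicate 1 the limma adjusted p of Vegfa was 0.0268, where 710 of the 10088 tested genes passed, and the lowest adjusted p of any ligand was 0.383 without PBS replicate 1, 0.439 without Sema3G replicate 2 and 0.392 without Sema3G replicate 3 in limma. The median log2 fold change of the 8 ligands was -0.34, and 0 of them passed the adjusted p in the fit with all libraries and no block.

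**Figure D5:**
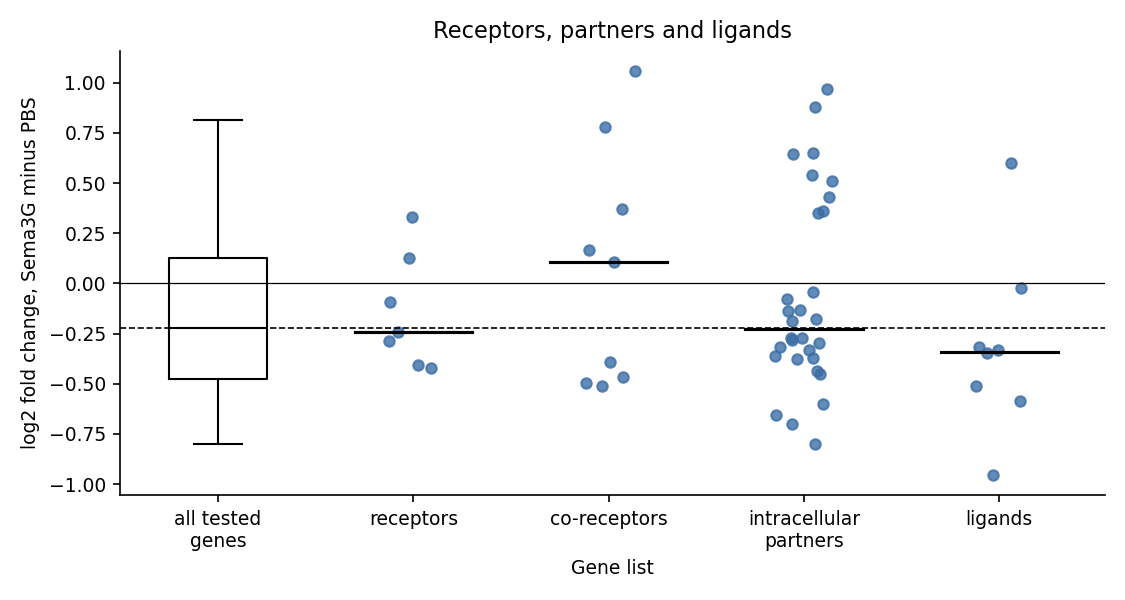
Log2 fold change (Sema3G minus PBS) of each tested receptor, co-receptor, intracellular partner and ligand, 1 point per gene with a bar at the median of the list, beside a box of all tested genes (quartiles, with whiskers at the 5th and 95th percentiles). The lists spread around the dashed median of -0.22, and no point passed an adjusted p of 0.05.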

How the data were processed

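Total RNA of 5 samples of LPS-stimulated BMMs was made into QuantSeq 3′ libraries with UMIs. The authors aligned these to mm10, obtained UMI counts in Strand NGS, and used edgeR (3.12 in the submitters' processing notes) to normalize. Sources used here name no gene annotation, filter or strand setting. The CPM values that the authors deposited were whole multiples of 1 step per library (100% within 0.01 of a whole count), which gave the UMI counts. The deposited p-values, q-values and ranks of the authors' own comparison were not used. 27 rows carry dates in place of symbols, and 11627 rows were at 0 in every library.

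Levels were tested with limma (3.58.1, under R 4.3.3) on log2(CPM + 1), letting the prior variance follow the mean, over 10088 genes whose mean reached 1 CPM. Tests were two-sided, with Benjamini-Hochberg adjustment over all tested genes and a threshold of 0.05. Fold changes on this scale understate those of low genes. edgeR (4.0.16) and DESeq2 (1.42.0) on recovered counts, other scalings, filters and pseudocounts, a replicate block and leaving out each library were alternatives. The fits were run on simulated data with changes larger than those of the receptors. That run does not show how the fits behave for changes as small as these. Coordinates are from GENCODE M21 (GRCm38). The receptors and gene lists were chosen with earlier results of these data known. Named by rule are all receptors, the 3 most abundant genes of each list, list members past the threshold (there were 0), the 5 genes nearest to Nrp2 in profile, Rn45s and Sema3g. Marker genes, the VEGF receptors and genes said to be so in the text were named beyond it. Markers of T and B cells (0 to 3.34 CPM in sum), dendritic cells (0 to 1.67 CPM), mast cells and basophils (0 to 0.461 CPM), neutrophils (103 to 169 CPM, mostly S100a8) and fibroblasts (11.8 to 28.6 CPM) were also looked up.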

Additional observations from a re-analysis of the deposited data

How the results depend on the processing

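Under 15 alternatives, 96 of 104 values for the 7 tested receptors kept their direction, and none passed the threshold (DESeq2 gave Plxna2 no adjusted p). Nrp1, Plxna1 and Plxna2 kept their direction under all that gave a value (Plxna2 has none with a filter of 5 CPM). A change of filter cannot alter an estimate, so the directions under the filters were fixed in advance. The replicate block repeats the estimates of the fit without Sema3G replicate 3. The counts above therefore overstate the number of separate checks. Over listed genes other than Rn45s the log2 fold change was 0.048 for Nrp2, 0.0038 for Plxnb2 and 0.19 for Plxnd1. That of Plxnd1 was 0.11 with TMM-scaled CPM, 0.11 with edgeR's quasi-likelihood test with TMM and 0.12 with DESeq2. With each library left out in turn it ranged from -0.31 to 0.13 for Plxnd1 and from -0.36 to 0.61 for Plxnc1. Receptors lower in every Sema3G library numbered 3 in CPM, 1 with TMM scaling and 0 over listed genes.

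Of all genes tested, 182 were called (160 higher, 22 lower), against 108 with no filter, 325 with TMM scaling (322 higher, 3 lower), 498 over listed genes (496 higher, 2 lower) and 304 with edgeR's quasi-likelihood test with TMM. Leaving out 1 library at a time gave counts between 27 (Sema3G replicate 2 absent) and 710 (Sema3G replicate 1 absent, 270 higher and 440 lower), with 32 when Sema3G replicate 3 was absent and 99 when PBS replicate 1 was. The samples share only replicate numbers, with correlations of deviations of 0.17 for number 1 and 0.11 for number 2, beside 0.097 for PBS 2 with Sema3G 3, which share none. With 2 PBS libraries the PBS deviations are exact opposites, so these correlations cannot show whether the samples were paired. With a replicate block 573 genes were called (298 higher, 275 lower), 0 of them receptors, and Nrp2 was at -0.22. Sema3G replicate 3 has no PBS partner, so this contrast rests on 2 pairs and has the same estimates as the fit without that library, where 32 genes were called. The cause of these differences was not tested. With 2 PBS libraries, of which replicate 1 sets several values, and 20 or fewer UMIs of Plxna2, Plxna3 and Plxnb1, only large differences could be seen.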
